A study of Mus musculus with 4 samples.

Results

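Angptl4, Cpt1a, Acot1, Ucp3 and Ucp2 are target genes of the peroxisome proliferator-activated receptors (PPARs) that are known to rise in muscle or liver on fasting. They were described across 4 arrays of mouse heart RNA. All probe sets annotated to exactly 1 of these symbols were taken, which gave 8 probe sets for 4 of the 5 genes, out of 45037 probe sets and 18193 genes in the series. No probe set was annotated to Ucp2 alone, and Ucp2 was not analysed here. The genes were chosen with measured values of these arrays in view, by comparing the array NTg-2 with each of the other 3. Their differences on NTg-2 are therefore given as a description, with no test. No fast is mentioned in the labels, and Cpt1a did not share the higher level that the other 3 genes had on NTg-2.

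As labelled, the series held whole-heart total RNA from 2 mice carrying a Sirt1 transgene, Tg-Sirt1-1 and Tg-Sirt1-2, and from 2 wild type mice, NTg-1 and NTg-2. Sirt1 is an NAD-dependent protein deacetylase. No treatment other than terminal pentobarbital is named, and strain, age, sex, feeding state, promoter and transgenic line are not stated in the material used. Nothing in the labels says whether a transgenic line is 1 founder or several.

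The PPARs are nuclear receptors that bind fatty acids and, paired with a retinoid X receptor, switch on genes for the uptake, transport and oxidation of fat. During a fast adipose tissue releases fatty acids, and these both fuel the heart and act as ligands of its PPARs. The genes described here sit at successive steps of that supply. Angptl4 restrains fat uptake from lipoproteins, Cpt1a admits fatty acids to mitochondria, Acot1 frees fatty acids from coenzyme A, and Ucp3 and Ucp2 are carriers of the inner mitochondrial membrane.

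Arrays labelled NTg-1 and Tg-Sirt1-1 were near-identical although they bear different labels: the SD of their differences over all probe sets was 0.0759 log2 units, against 0.342 to 0.405 in the other 5 pairs of arrays. Sirt1 read 7.93 on Tg-Sirt1-2 and 7.16 on Tg-Sirt1-1, against 7.30 on NTg-1 and 7.17 on NTg-2. The transgene was thus not visible at this probe set on the array labelled Tg-Sirt1-1. The 4 arrays are therefore named singly below. All 10 cardiomyocyte markers on the list used here lay above the median of every array, which was 6.22 to 6.30. Values are deposited log2 values after RMA, and the number of arrays limits their precision.

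Promoter windows of 4 of the 5 genes were found in the RefSeq table of GRCm38.p6. The 250 bases before the annotated start are shown for Acot1 and Ucp3, both of which were higher on NTg-2 and differ in whether the window holds a receptor core motif. Both lie on the plus strand, Acot1 at chr12:84009252-84009501 and Ucp3 at chr7:100472741-100472990. Capitals mark AGGTCA, the core motif of many nuclear receptors, searched on both strands.
Acot1: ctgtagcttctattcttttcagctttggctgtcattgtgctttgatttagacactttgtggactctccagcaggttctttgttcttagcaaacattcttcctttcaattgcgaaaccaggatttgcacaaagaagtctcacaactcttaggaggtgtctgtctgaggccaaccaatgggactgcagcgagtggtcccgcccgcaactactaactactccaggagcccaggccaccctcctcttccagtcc
Ucp3: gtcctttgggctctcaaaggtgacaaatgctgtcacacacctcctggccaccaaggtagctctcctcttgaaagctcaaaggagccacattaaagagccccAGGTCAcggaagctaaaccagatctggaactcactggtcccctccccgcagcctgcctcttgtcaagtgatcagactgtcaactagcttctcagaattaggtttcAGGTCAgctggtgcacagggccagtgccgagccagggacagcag
The Ucp3 window held AGGTCA with its first base 149 and 44 bases before the start, whereas the Acot1 window held none on either strand. For Cpt1a and Ucp2 the table's window belongs to a start inside the annotated span of the gene, so that it is not upstream of every transcript. The Cpt1a window held the core motif on the opposite strand, 94 bases before that start, and the Ucp2 window held none. Of 32851 windows of this length, 14% held the core motif. The full PPAR element in its ideal form is a direct repeat, AGGTCANAGGTCA, which was in 11 of those windows (0.0335%) and in none of the windows of Acot1, Ucp3, Ucp2 and Cpt1a. These matches describe letters only.

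Angptl4 encodes a secreted protein that inhibits lipoprotein lipase, the enzyme that frees fatty acids from circulating triglyceride. Its brighter probe set read 9.22 on NTg-2, against 7.36 on Tg-Sirt1-2, 6.98 on Tg-Sirt1-1 and 6.97 on NTg-1. NTg-2 was the only high array, and the lower 3 lay within 0.39 log2 units. In linear terms NTg-2 stood 3.63-fold above Tg-Sirt1-2, 4.72-fold above Tg-Sirt1-1 and 4.76-fold above NTg-1. This probe set carries the suffix _s_at, which marks probes that can match several transcripts. The other Angptl4 probe set was dim and read 3.68 on NTg-2, against 3.38 on Tg-Sirt1-2 and 3.40 on both Tg-Sirt1-1 and NTg-1. It had the same order at the top, with a difference of 0.28 from the nearest array.

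Cpt1a is the isoform of carnitine palmitoyltransferase 1 that dominates in liver, and it catalyses the step by which long-chain fatty acids enter mitochondria. Its brightest probe set read 8.76 on NTg-2, against 8.96 on Tg-Sirt1-2 and 8.93 on both Tg-Sirt1-1 and NTg-1. NTg-2 was here the lowest of the 4 arrays, by 0.17 to 0.20 log2 units, unlike for Angptl4, Acot1 and Ucp3. After a second quantile normalization NTg-2 lay within the range of the other arrays, 0.03 under the highest and 0.05 above the lowest. The remaining 2 Cpt1a probe sets were below the median of each array, at 5.63 to 5.89 and 4.26 to 4.67, and NTg-2 lay inside the range of the other arrays on both. Cpt1b, the isoform that dominates in heart muscle, had no probe set annotated to it alone and was not analysed here.

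Acot1 is a cytosolic acyl-CoA thioesterase, which splits long-chain acyl-CoA into free fatty acid and coenzyme A. Its probe set read 8.48 on NTg-2, against 6.57 on Tg-Sirt1-2, 6.48 on Tg-Sirt1-1 and 6.38 on NTg-1. Again only NTg-2 was high, and the other 3 arrays, which stood just above their medians, lay within 0.19 log2 units. NTg-2 exceeded Tg-Sirt1-2 by 3.76-fold, Tg-Sirt1-1 by 4.0-fold and NTg-1 by 4.29-fold. Acot2, the mitochondrial paralogue that neighbours Acot1 on chromosome 12, is closely similar in sequence, so their signals may not be wholly separate. A probe set annotated to both genes, which was assigned to neither, read 8.86 on NTg-2, against 7.50 on Tg-Sirt1-2, 7.47 on Tg-Sirt1-1 and 7.46 on NTg-1.

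Ucp3 is the uncoupling protein of skeletal muscle and heart mitochondria, and its neighbour on chromosome 7, Ucp2, is expressed more widely. The brighter Ucp3 probe set read 9.40 on NTg-2, against 8.35 on Tg-Sirt1-2, 8.13 on Tg-Sirt1-1 and 8.23 on NTg-1. This was a smaller difference than for Angptl4 or Acot1, at 2.07-fold over Tg-Sirt1-2, 2.41-fold over Tg-Sirt1-1 and 2.25-fold over NTg-1. The dimmer Ucp3 probe set read 7.70 on NTg-2, against 6.61 on Tg-Sirt1-2, 7.02 on Tg-Sirt1-1 and 7.01 on NTg-1. Both probe sets had NTg-2 on top, but they placed Tg-Sirt1-2 differently, second on the brighter and last on the dimmer.

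**Figure D1:**
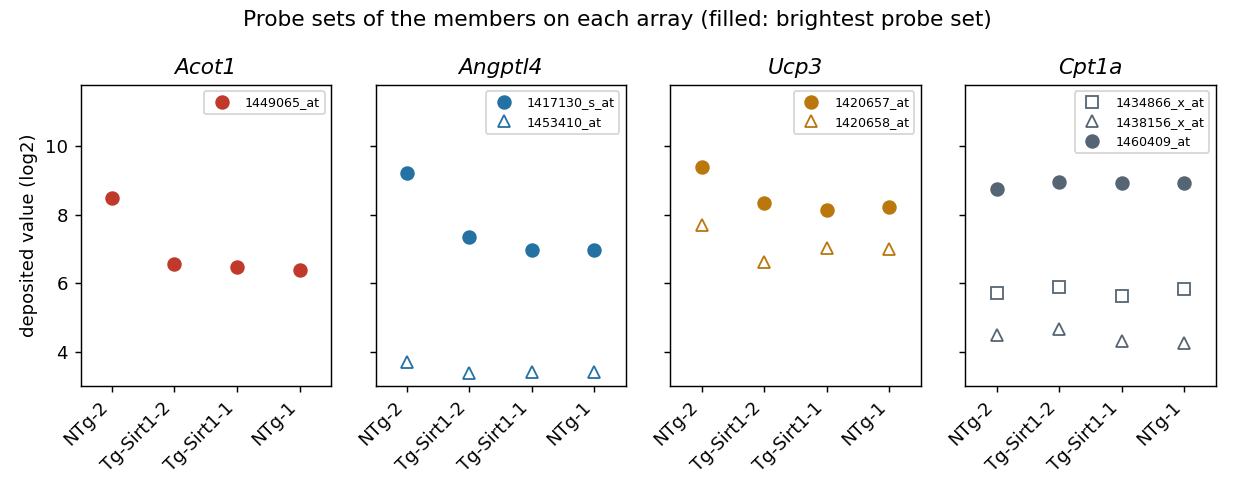
Deposited log2 value (vertical axis) of each probe set of Acot1, Angptl4, Ucp3 and Cpt1a on each array (horizontal axis). Filled points are the brightest probe set of a gene and open symbols the others. NTg-2 stands alone at 8.48 for Acot1, 9.22 for Angptl4 and 9.40 for Ucp3, and is the lowest array for the brightest Cpt1a probe set, at 8.76.

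**Figure D2:**
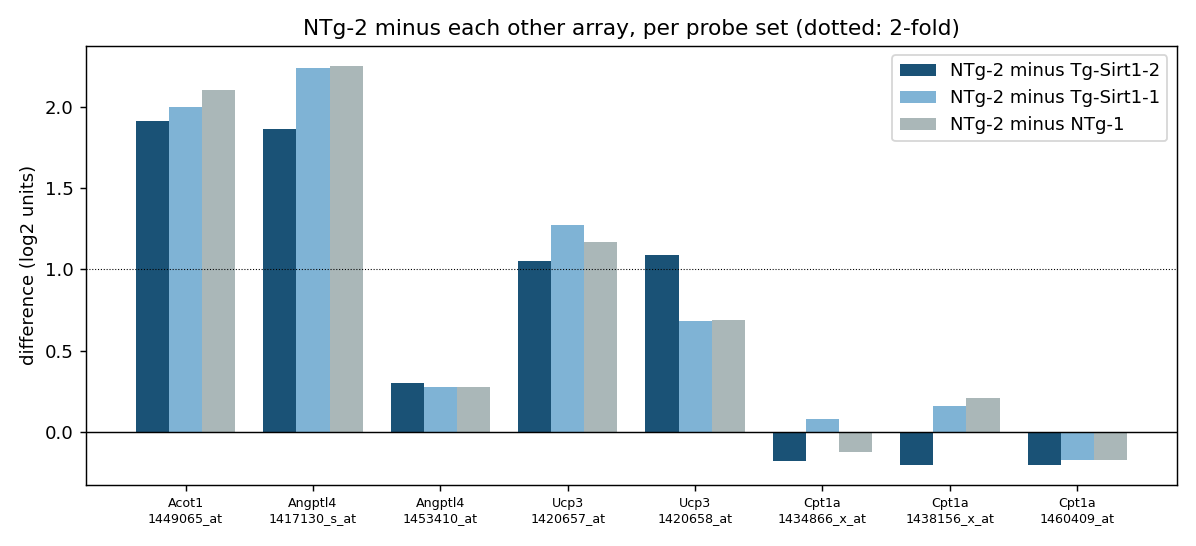
Difference in log2 units (vertical axis) between NTg-2 and each of the other 3 arrays for each of the 8 probe sets, 1 bar per array compared. The dotted line is 2-fold. All 5 probe sets of Acot1, Angptl4 and Ucp3 lie above 0 in the 3 comparisons, with the dim Angptl4 probe set at 0.28 to 0.30, and the 3 probe sets of Cpt1a lie between -0.20 and 0.21.

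With the brightest probe set of each gene, NTg-2 was higher than each other array for 3 of the 4 genes, and at least 2-fold higher for the same 3. Over all 18193 genes, 34.3% were higher on NTg-2 than on each other array, 0.753% were at least 1.5-fold higher and 0.137% at least 2-fold higher. Taken 1 array at a time, 0.506% of genes were at least 2-fold higher on NTg-2 than on Tg-Sirt1-2, 0.324% than on Tg-Sirt1-1 and 0.313% than on NTg-1. Of the 8 probe sets, 5 were higher on NTg-2 than on each other array, as were 38.5% of all probe sets. The member list was picked on this contrast, so nothing is read from the gap between these shares. Ranked by the margin of NTg-2 over the highest other array, Acot1 was at place 4, Angptl4 at place 6, Ucp3 at place 21 and Cpt1a at place 10752. When each array was centred on its median the Ucp3 margin was 0.97 log2 units, just under 2-fold. The comparisons share NTg-2, and those with NTg-1 and with Tg-Sirt1-1 are nearly the same comparison.

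**Figure D3:**
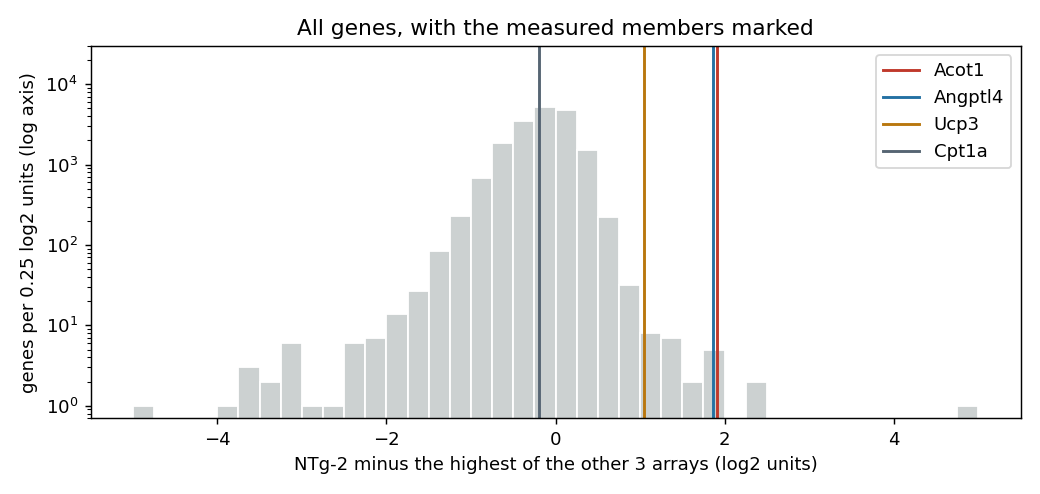
Number of genes (vertical log axis) by the margin of NTg-2 over the highest of the other 3 arrays in log2 units (horizontal axis), over 18193 genes, with a line for each measured member. Acot1 at 1.91, Angptl4 at 1.86 and Ucp3 at 1.05 lie in the sparse right tail, and Cpt1a at -0.20 lies in the bulk.

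The design's own comparison, of transgenic with wild type hearts, gave no call for these genes. Angptl4 averaged 7.17 ± 0.27 in Tg-Sirt1 and 8.10 ± 1.59 in NTg (SD, n = 2 each). Acot1 averaged 6.53 ± 0.06 in Tg-Sirt1 and 7.43 ± 1.48 in NTg, and Ucp3 8.24 ± 0.16 in Tg-Sirt1 and 8.82 ± 0.83 in NTg. Cpt1a averaged 8.95 ± 0.02 in Tg-Sirt1 and 8.85 ± 0.12 in NTg. The wide NTg spread of the first 3 genes is the distance between NTg-2 and NTg-1.

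For Angptl4 the log2 difference of Tg-Sirt1 minus NTg was -0.925, with a 95% confidence interval from -2.58 to 0.73. It was -0.905 for Acot1 (interval -2.43 to 0.62), -0.575 for Ucp3 (-1.48 to 0.33) and 0.10 for Cpt1a (-0.26 to 0.46). The adjusted p in limma was 0.994 for each of the 4 genes, and the groups overlapped or were tied in all of them, while 20.7% of all genes had groups that did not overlap. In limma 0 of 18193 genes passed an adjusted p of 0.05 (0%), and 10 had an unadjusted p under 0.05 (0.055%). The near-identical arrays stand on opposite sides of this test, and 0 genes passed also with their mean taken as 1 array of either group, or with either of them left out. A missed threshold with so few arrays is no sign that the groups are the same. Without NTg-2 the differences turned to 0.20 for Angptl4, 0.145 for Acot1 and 0.01 for Ucp3, and that of Cpt1a was 0.015. No statement that these genes were lower with the transgene can thus be separated from the single array NTg-2.

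A contrast that holds no value of NTg-2 is Tg-Sirt1-2 against the near-identical pair, again with 1 array on a side or nearly so and no test. Tg-Sirt1-2 was above Tg-Sirt1-1 by 0.38 for Angptl4, 0.09 for Acot1, 0.22 for Ucp3 and 0.03 for Cpt1a, and above NTg-1 by 0.39, 0.19, 0.12 and 0.03 for the same genes. All 4 were higher on Tg-Sirt1-2 than on both arrays of the pair, as were 52.4% of all genes, and none was 1.5-fold higher, as were 1.39% of all genes. The dimmer Ucp3 probe set went the other way, 0.41 below Tg-Sirt1-1 and 0.40 below NTg-1. The dim Angptl4 probe set was 0.02 below both, so the margin of Angptl4 on Tg-Sirt1-2 rests on its _s_at probe set alone.

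Genes with the most similar course over the 4 arrays were found by the Euclidean distance between log2 profiles centred on their own means. Nearest to Acot1 were Meig1 (distance 0.0671), Gm19277 (0.152) and Mybpc2, the fast skeletal myosin-binding protein C (0.242). Mybpc2 read 9.10 on NTg-2, against 7.09 on Tg-Sirt1-2, 7.06 on Tg-Sirt1-1 and 7.22 on NTg-1. Nearest to Angptl4 were Meig1 (0.187), Casq1, the calsequestrin of fast skeletal muscle (0.221), and Dcaf12l1 (0.288). Nearest to Ucp3 were the kinase gene Map3k6 (0.0721), the guanylate-binding protein gene Gbp6 (0.115) and Tmod4, the tropomodulin of skeletal muscle (0.124). Casq1 read 10.02 on NTg-2, against 8.47 on Tg-Sirt1-2, 7.91 on Tg-Sirt1-1 and 7.93 on NTg-1. The nearest to Cpt1a, at distances of 0.00866 to 0.01, were Arhgef2, Katnbl1 and Exosc9, whose small differences many genes share. Such likeness over 4 arrays, 2 of them near-identical, describes little more than the level on NTg-2 and on Tg-Sirt1-2.

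Most other PPAR targets of fatty acid use on the list used here were also higher on NTg-2, mostly by small amounts. This list and those below were chosen with earlier results of these data known, so their counts are given as a description. Of 33 measured genes on this list, 24 were higher on NTg-2 than on each other array and 3 were lower, against 34.3% and 37.9% of all genes. Their median on NTg-2, relative to the median of the other arrays, was 0.20, against -0.01 over all genes. Centred on array medians the count was 19 of 33, against 25% of all genes, and after a second quantile normalization it was 27 of 33, against 35.9%. Between Tg-Sirt1 and NTg, 0 of the 33 passed in either direction. There were 4 differences above 0 and 29 below 0, with a median of -0.115 against 0.015 over all genes. NTg-2 enters the NTg mean, so this split largely restates its higher level and is not read as lower expression with the transgene. Without NTg-2, Tg-Sirt1-2 was above both arrays of the near-identical pair for 15 of the 33 genes and below both for 16.

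Within that list 3 genes were at least 1.5-fold higher on NTg-2 than on each other array. Pdk4, the kinase that shuts off pyruvate dehydrogenase so that fat is burned in place of glucose, read 13.01 on NTg-2, against 10.55 on Tg-Sirt1-2, 10.27 on Tg-Sirt1-1 and 10.26 on NTg-1. Plin5, the lipid droplet protein of oxidative tissue, read 11.55 on NTg-2, against 10.80 on Tg-Sirt1-2, 10.56 on Tg-Sirt1-1 and 10.53 on NTg-1. Acot2 read 10.26 on NTg-2, against 9.40 on Tg-Sirt1-2, 9.28 on Tg-Sirt1-1 and 9.25 on NTg-1. All 3 were highest on NTg-2 and next on Tg-Sirt1-2, as were Angptl4 and Acot1, and the order within the near-identical pair is not read. The acyl-CoA synthetase gene Acsl3 went the other way, with 5.57 on NTg-2, against 7.35 on Tg-Sirt1-2, 6.96 on Tg-Sirt1-1 and 6.95 on NTg-1. Some core enzymes of the beta-oxidation spiral lay close to the other arrays, while other enzymes of fatty acid oxidation were higher on NTg-2. Relative to the median of the other arrays, NTg-2 differed by -0.08 for Hadha and -0.01 for Hadhb, the subunits of the trifunctional protein. It differed by 0.13, -0.04 and 0.05 for the acyl-CoA dehydrogenase genes Acadm, Acadl and Acadvl, of which Acadm and Acadvl were above each other array. Acaa1a, Eci2 and Ech1 were also above each other array, by 0.39, 0.33 and 0.28 over that median.

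Genes of the receptors and their partners did not all go one way. Of 13 measured PPAR receptors, partners and coactivators, 2 were higher and 8 lower on NTg-2 than on each other array. The shares over all genes were 34.3% and 37.9%. Centred on array medians, 1 was higher and 8 lower, against 25% and 47% of all genes, and the median was -0.31. After a second quantile normalization the counts were 5 higher and 4 lower, against 35.9% and 33.2% of all genes, and the median was -0.004. Ppara, the main PPAR of oxidative tissue, read 8.63 on NTg-2, against 9.18 on Tg-Sirt1-2, 8.98 on Tg-Sirt1-1 and 8.96 on NTg-1. Pparg, the receptor of fat cells, read 8.02 on NTg-2, against 7.80 on Tg-Sirt1-2, 7.56 on Tg-Sirt1-1 and 7.54 on NTg-1. Like Angptl4 and Acot1, Pparg was highest on NTg-2 and next on Tg-Sirt1-2. Lpin1, a phosphatidate phosphatase and coactivator, was the furthest below the others, at 10.28 on NTg-2 against 10.82 to 10.91 on the other arrays.

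Relatives of the members by protein family were found on both sides of the other arrays. The shares to set beside the counts are 34.3% of all genes higher on NTg-2 than on each other array and 37.9% lower. Among 13 other acyl-CoA thioesterases, 4 were higher and 7 lower on NTg-2 than on each other array, with Acot2 the only one at least 1.5-fold higher. Acot7, a cytosolic thioesterase best known from brain, read 9.39 on NTg-2, against 10.29 on Tg-Sirt1-2 and Tg-Sirt1-1 and 10.30 on NTg-1. Among 10 other angiopoietin-like proteins and regulators of lipoprotein lipase, 4 were higher and 2 lower. Gpihbp1, which anchors lipoprotein lipase on capillaries, read 10.75 on NTg-2, against 9.95 on Tg-Sirt1-2, 10.24 on Tg-Sirt1-1 and 10.23 on NTg-1. Among 6 carriers related to the uncoupling proteins, 1 was higher and 2 lower, and Slc25a5, an adenine nucleotide carrier, read 12.27 on NTg-2 against 12.65 to 12.88 on the other arrays. Among 9 other genes of carnitine-dependent transport, 4 were higher and 2 lower. The partners of Cpt1a in that route, Cpt2 and the carnitine-acylcarnitine carrier gene Slc25a20, read 11.78 and 11.14 on NTg-2, with Cpt2 at 11.27 to 11.48 and Slc25a20 at 10.54 to 10.64 elsewhere. After a second quantile normalization the counts were 6 higher and 1 lower for both the lipase and the carnitine list, against 35.9% and 33.2% of all genes. The medians of these lists were then 0.097 and 0.292, against -0.02 and 0.05 as deposited. Centred on array medians, 4 were higher and 3 lower on the lipase list, and 3 higher and 2 lower on the carnitine list. The shares of all genes were then 25% and 47%, and the medians of these lists -0.09 and -0.01. Acot2, Lpl, Cpt2, Slc25a20 and Mlycd, which were higher on NTg-2, are also on the list of other PPAR targets, so the lists are not separate. For all of the family lists, 0 genes passed between Tg-Sirt1 and NTg in limma.

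A mixed list of fasting and glucocorticoid response and a list of feeding and insulin response had medians of opposite sign on NTg-2. The mixed list does not separate fasting from glucocorticoid response. On a list of genes that respond to fasting or glucocorticoids, 17 of 25 were higher on NTg-2 than on each other array and 3 lower. The shares of all genes were 34.3% and 37.9%, and the median of the list was 0.35. Centred on array medians, 13 were higher and 5 lower, against 25% and 47% of all genes. The metallothionein gene Mt2 read 10.44 on NTg-2, against 9.85 on Tg-Sirt1-2, 9.29 on Tg-Sirt1-1 and 9.34 on NTg-1. Members of the list did not all go one way: Fbxo32, a ubiquitin ligase of muscle atrophy, read 10.29 on NTg-2 against 11.06 to 11.30 on the other arrays. On a list of genes that respond to feeding or insulin, 7 of 12 were lower and 4 higher, against 37.9% and 34.3% of all genes, with a median of -0.405. The 4 higher were Pnpla3, at 7.20 on NTg-2 against 6.81 to 6.92 elsewhere, and Slc2a4, Elovl6 and Me1, by 0.01 to 0.03 over the highest other array. Centred on array medians, 10 were lower and 1 higher, against 47% and 25% of all genes. Fasn, the fatty acid synthase, read 7.12 on NTg-2, against 8.36 on Tg-Sirt1-2, 9.01 on Tg-Sirt1-1 and 9.0 on NTg-1. The desaturase genes Scd2 and Scd1 read 7.67 and 8.86 on NTg-2, with Scd2 at 8.80 to 8.83 and Scd1 at 9.75 to 9.82 elsewhere, and the sterol regulator gene Srebf1 read 8.23 on NTg-2 against 9.0 to 9.18. The medians kept their signs under both other scalings, at 0.28 and 0.523 for the fasting and glucocorticoid list and at -0.47 and -0.202 for the feeding and insulin list (centred first, quantile normalized second).

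Without NTg-2, the fasting and glucocorticoid list was higher on Tg-Sirt1-2 than on both arrays of the near-identical pair for 19 of 25 genes, against 52.4% of all genes, with a median of 0.24 over Tg-Sirt1-1 against 0.04 over all genes. For the 33 other PPAR targets the count was 15, with a median of 0. Of the genes of both lists, 0 passed between Tg-Sirt1 and NTg in limma.

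**Figure D4:**
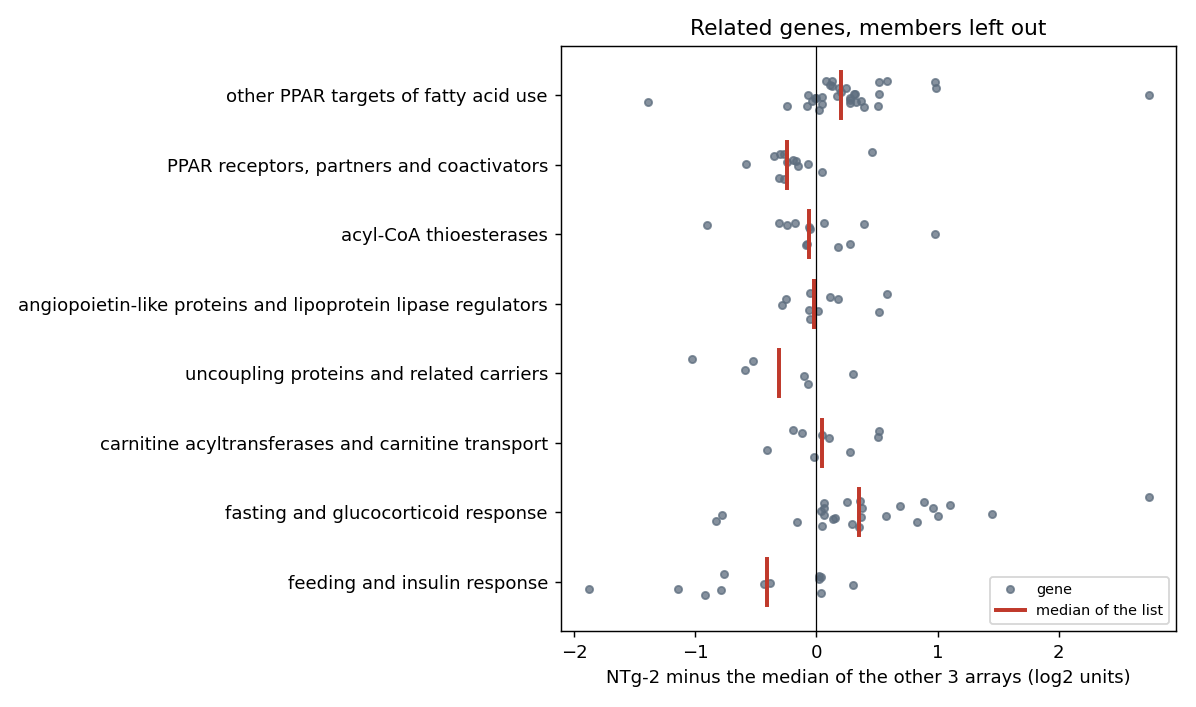
NTg-2 minus the median of the other 3 arrays in log2 units (horizontal axis) for each gene of 8 lists of related genes, the members left out. Grey points are genes and red bars the medians of lists, which lie at 0.20 for other PPAR targets, -0.24 for receptors and partners, 0.35 for fasting and glucocorticoid genes and -0.405 for feeding and insulin genes. The Pdk4 point at 2.74 stands on both the PPAR target and the fasting and glucocorticoid list.

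In whole-heart RNA, more cells of a type and more RNA per cell cannot be told apart, so markers of cell types are given beside the members. Ucp3 is abundant in skeletal muscle, as are Mybpc2, Casq1 and Tmod4 from the genes nearest to the members. Of 12 skeletal muscle markers, 7 were higher and 0 lower on NTg-2 than on each other array, against 34.3% and 37.9% of all genes. After a second quantile normalization 6 were higher and 2 lower, against 35.9% and 33.2% of all genes. Of the 12 markers, 8 were below the median of every array. The fast troponin gene Tnnc2 read 5.27 on NTg-2, against 4.74 to 4.87 on the other arrays. The fast light chain gene Mylpf read 6.29 on NTg-2, against 5.84 to 5.99, and the perinatal myosin gene Myh8 4.85 on NTg-2, against 4.40 to 4.51 elsewhere. These 3 were higher on NTg-2 but dim. The 5 markers Myh2, Myh4, Tnnt3, Pvalb and Ckm lay inside the range of the other arrays. Among them Myh2 read 6.11 on NTg-2, against 6.08 to 6.19 elsewhere, and Pvalb 6.43, against 6.34 to 6.51. Ckm read 12.79 on NTg-2, against 12.51 to 13.07 elsewhere. Acta1, skeletal alpha-actin, which the heart also expresses, stood alone at 12.17 on NTg-2, against 6.46 on Tg-Sirt1-2, 7.23 on Tg-Sirt1-1 and 7.37 on NTg-1. The summed linear level of the list was 6444 to 9272 in Tg-Sirt1 and 9305 to 12283 in NTg, the last on NTg-2, and it is carried by Acta1 and by Ckm, which is also a cardiomyocyte marker. Without these genes the sum of the other 10 markers was 523 in both Tg-Sirt1 arrays, 593 on NTg-2 and 541 on NTg-1. The part of skeletal muscle RNA in the levels of Ucp3, Acot1 and Angptl4 was not tested.

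Angptl4 is also abundant in adipose tissue. Of 8 measured adipocyte markers, 2 were higher and 1 lower on NTg-2 than on each other array, against 34.3% and 37.9% of all genes. Their summed level was 7290 to 7957 in Tg-Sirt1 and 7584 to 8007 in NTg, with NTg-2 at the lower of these. That sum is carried by Fabp4, which read 12.69 to 12.73 on all 4 arrays. Without Fabp4 the other 7 summed to 682 on Tg-Sirt1-2 and 1210.4 on Tg-Sirt1-1, against 837 on NTg-2 and 1213.5 on NTg-1. The largest part of this remaining sum is Cidea, which read 8.81 on NTg-2, against 8.22 on Tg-Sirt1-2, 9.35 on Tg-Sirt1-1 and 9.38 on NTg-1. Adipoq, the adiponectin gene, read 5.92 on NTg-2, against 6.79 on Tg-Sirt1-2, 7.56 on Tg-Sirt1-1 and 7.50 on NTg-1. The markers higher on NTg-2 were Pck1, at 5.66 against 5.23 to 5.34 on the other arrays, and Retn, at 7.23 against 6.88 to 6.96. Fasn, like Adipoq, was lowest on NTg-2 and next lowest on Tg-Sirt1-2, whereas Scd1 and Srebf1 were highest on Tg-Sirt1-2. The part of adipose RNA in the levels of Angptl4 and of the feeding and insulin genes was not tested. Cpt1a is abundant in liver, and the summed level of 9 liver markers was 1118 to 1137 in Tg-Sirt1 and 1105 to 1128 in NTg.

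Marker RNA of other cell types also differed on NTg-2. Fibroblast markers were lower there for 9 of 10 genes, against 37.9% of all genes. Their summed level was 27267 to 37099.8 in Tg-Sirt1 and 21411 on NTg-2 against 37305 on NTg-1. Of 8 neutrophil markers 7 were higher on NTg-2, against 34.3% of all genes. Their summed level was 796 to 828 in Tg-Sirt1, 1295 on NTg-2 and 810 on NTg-1. Only 2 of them were at least 2-fold higher on NTg-2 than on each other array. These were S100a8, at 7.55 against 5.64 to 6.10 elsewhere, and S100a9, at 8.15 against 6.39 to 6.77. Elane, Camp and Ngp were 0.21 to 0.35 above the median of the other arrays, and Ltf was lower, at 5.74 against 5.79 to 5.84. Relative to the other arrays, NTg-2 had a median of -0.355 for endothelial markers, -0.235 for macrophage and monocyte markers, -0.085 for cardiomyocyte markers and 0.15 for T and B cell markers. After a second quantile normalization these were -0.116, -0.208, 0.006 and 0.073. The 3′ minus 5′ signal of the Gapdh control, which is larger where the 5′ end gives less signal, was 1.34 on Tg-Sirt1-2 and 0.19 on Tg-Sirt1-1, against 0.69 on NTg-2 and 0.18 on NTg-1. The part of these shifts in the levels of Acot1, Angptl4, Ucp3 and Cpt1a was not tested.

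**Figure D5:**
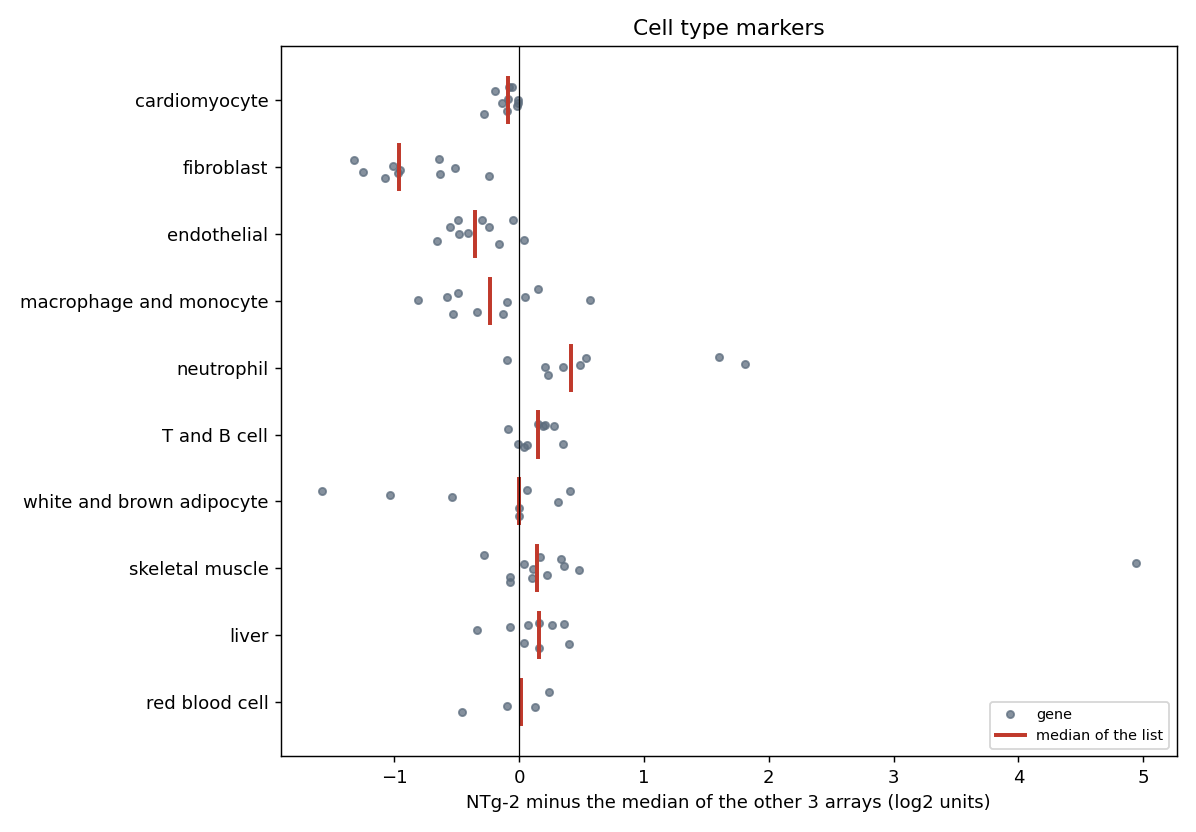
NTg-2 minus the median of the other 3 arrays in log2 units (horizontal axis) for each gene of 10 lists of cell type markers. Grey points are genes and red bars the medians of lists. Fibroblast markers lie lowest, with a median of -0.96, neutrophil markers highest, with a median of 0.42, and the single point near 5 is Acta1, at 4.94, among skeletal muscle markers with a median of 0.14.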

How the data were processed

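As labelled, total RNA of 4 hearts was measured on 4 arrays, 1 per mouse. NTg-1 and Tg-Sirt1-1 differed by at most 0.48 log2 units at any probe set. Whether they hold RNA of separate mice was not tested. The authors deposited log2 values with 2 decimals, 1 per probe set; per the submitters' processing notes these were made with RMA in Affymetrix Expression Console, with versions not given in the sources used. RMA corrects background, equalises array distributions and damps differences of dim probe sets. Detection calls were not used here. Of 45101 probe sets, 64 controls were left out, which left 45037. The platform annotation gave 34945 of these 1 symbol, 932 several and 9160 none here. A gene was represented by its probe set of highest mean. The Entrez identifiers of all 4 measured members matched the RefSeq table.

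Tg-Sirt1 was compared with NTg over all probe sets and all genes with lmFit and eBayes in limma 3.58.1 under R 4.3.3, two-sided, with Benjamini-Hochberg adjustment and a threshold of 0.05. The fit had 2 residual degrees of freedom, and the smallest p of an exact permutation test at this size is 0.333. The fit was tested on simulated data. Nothing says more of the replicates than that they are separate mice, which was not tested for the near-identical arrays. Differences between single arrays have no test.

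The members, the 8 lists of related genes and the 10 marker lists were chosen with earlier results of these data known. Named genes were the members, up to 4 genes per list with the largest distance of NTg-2 from the median of the other arrays among those outside their range, the 3 nearest genes per member, and Sirt1. Not every gene so found is printed. Hadha, Hadhb, Acadm, Acadl, Acadvl, Fabp4, Ckm and Fbxo32 were chosen after their values were seen. So were Myh2, Myh4, Tnnt3, Pvalb, Elane, Camp, Ngp, Ltf, Cidea, Lpl, Pnpla3, Slc2a4, Elovl6, Me1, Acaa1a, Eci2 and Ech1. Alternatives covered the replicate block, each array left out, the near-identical pair counted once, dim probe sets, scaling, an offset, the prior, the threshold and the choice of probe set. Deviations of same-numbered arrays from their group means correlated at 0.293 over 2 pairs, which does not establish pairing.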

Additional observations from a re-analysis of the deposited data

How the results depend on the processing

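In each of 15 alternatives, 0 probe sets, 0 genes and 0 members passed between Tg-Sirt1 and NTg, also at an adjusted p of 0.1. With the replicate number as a block, 0 members passed, and the log2 differences of Tg-Sirt1 minus NTg were -0.905 for Acot1, -0.925 for Angptl4, -0.575 for Ucp3 and 0.10 for Cpt1a, as without the block, at a limma adjusted p of 0.935. With each array left out in turn they ran from -1.955 to 0.145 for Acot1, -2.05 to 0.20 for Angptl4, -1.16 to 0.01 for Ucp3 and 0.015 to 0.185 for Cpt1a. The values above 0 for the first 3 were those without NTg-2. The lowest limma adjusted p over all alternatives was 0.258 for Acot1, 0.333 for Angptl4 and Ucp3 and 0.511 for Cpt1a. In the 6 alternatives that keep all arrays and change scaling or probe sets, 3 of 4 members were higher on NTg-2 than on each other array, and 3 to 4 were higher on Tg-Sirt1-2 than on the near-identical pair. The margin of NTg-2 over the highest other array ran from 1.75 to 2.02 for Acot1, 0.28 to 2.00 for Angptl4, 0.93 to 1.24 for Ucp3 and -0.28 to -0.03 for Cpt1a. The 0.28 of Angptl4 came from leaving out probe sets ending in _x_at and _s_at, which leaves its dim probe set, and the mean over both of its probe sets gave 1.08. Dim probe sets limit what can be said of fold size, since RMA damps them.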
